A study of Mus musculus with 6 samples.

Results

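The genes described here are 37 genes of glycolysis, lactate export, pyruvate dehydrogenase control, the hypoxia-inducible factor (HIF) system and itaconate synthesis, followed by RNA sequencing in whole mouse lung after saline or lipopolysaccharide (LPS, the outer membrane component of Gram-negative bacteria). They were taken by gene symbol from a written list, and all 37 were found among the 23183 genes of the 6 expression tables. The series has 3 libraries of C57BL/6 lung after saline given into the trachea and 3 after LPS given the same way. The sources used here give no dose, time after instillation, age or sex. They do not say whether each library is a mouse of its own, so the spread behind each p-value may be technical.

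The titles and the series design call all 6 libraries wild type. The genotype field agrees for the saline libraries, but reads LCN2-/- for LPS libraries 1 and 2 and LCN4-/- for LPS library 3. Lcn2, which encodes lipocalin 2, stood at log2 values of 8.20, 11.28 and 10.11 in the saline libraries and at 13.60, 13.29 and 13.82 in the LPS libraries, so its RNA was highest where the field names a deletion. Which part of the gene a deletion would remove is not stated. Were the field correct, the effect of LPS and that of the deletion cannot be told apart here.

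Glycolysis splits glucose into pyruvate in the cytosol, and cells under low oxygen or activated by microbial products turn much of that pyruvate into lactate. HIF transcription factors, made of an oxygen-regulated alpha subunit and a stable partner, bind a short DNA core and drive many glycolytic genes. Prolyl hydroxylases mark the alpha subunit for destruction when oxygen is present, a control that acts on protein and is not visible in RNA. In myeloid cells exposed to LPS, the enzyme encoded by Irg1 (Acod1 in current nomenclature) diverts cis-aconitate from the tricarboxylic acid cycle into itaconate, which inhibits succinate dehydrogenase and limits inflammation.

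The core letters that HIF binds, ACGTG or GCGTG, were searched on both strands of RefSeq promoters (build GRCm38.p6, 250 bases before to 50 bases after a start site). A palindromic CACGTG holds 2 overlapping matches to ACGTG. RefSeq promoters were matched for 35 of the 37 genes, Irg1 under the name Acod1; Epas1 and Slc2a3 were not matched. For 6 of the roles below, the called gene with the most matches is shown, a tie going to the larger difference in RNA (Pfkm before Aldoc, Gapdh before Pgam1), and Irg1 beside them, with matched letters in capitals and the last bases lying in the first exon. They are shown because the promoters of genes that rose and of a gene that fell can be read side by side. The regions are Ldha at chr7:46845554-46845853 (plus strand), Pfkfb3 at chr2:11502041-11502340 (minus strand), Hif1a at chr12:73907617-73907916 (plus strand), Pfkm at chr15:98092339-98092638 (plus strand), Gapdh at chr6:125165724-125166023 (minus strand), Slc2a1 at chr4:119108495-119108794 (plus strand) and Irg1 at chr14:103046762-103047061 (plus strand).
Ldha: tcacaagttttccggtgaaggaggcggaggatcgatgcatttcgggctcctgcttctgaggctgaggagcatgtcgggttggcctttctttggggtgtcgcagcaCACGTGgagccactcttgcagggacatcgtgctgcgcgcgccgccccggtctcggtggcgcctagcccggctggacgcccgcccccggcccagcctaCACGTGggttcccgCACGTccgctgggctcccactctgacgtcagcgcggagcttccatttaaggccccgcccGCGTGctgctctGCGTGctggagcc
Pfkfb3: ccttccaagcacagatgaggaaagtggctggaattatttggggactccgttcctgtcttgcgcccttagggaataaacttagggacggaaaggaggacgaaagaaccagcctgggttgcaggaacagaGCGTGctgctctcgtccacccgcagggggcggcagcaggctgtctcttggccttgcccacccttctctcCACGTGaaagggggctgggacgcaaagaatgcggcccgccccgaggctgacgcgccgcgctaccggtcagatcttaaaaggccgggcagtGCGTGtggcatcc
Hif1a: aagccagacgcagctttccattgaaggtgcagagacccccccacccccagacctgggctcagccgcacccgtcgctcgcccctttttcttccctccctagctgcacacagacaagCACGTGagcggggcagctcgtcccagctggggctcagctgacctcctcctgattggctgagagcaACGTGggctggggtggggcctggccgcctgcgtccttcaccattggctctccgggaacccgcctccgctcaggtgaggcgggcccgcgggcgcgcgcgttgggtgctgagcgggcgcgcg
Pfkm: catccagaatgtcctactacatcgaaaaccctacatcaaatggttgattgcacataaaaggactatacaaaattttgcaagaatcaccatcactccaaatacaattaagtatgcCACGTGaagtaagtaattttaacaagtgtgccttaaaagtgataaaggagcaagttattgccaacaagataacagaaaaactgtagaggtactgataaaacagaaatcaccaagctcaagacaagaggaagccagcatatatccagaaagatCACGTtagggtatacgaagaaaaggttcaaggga
Gapdh: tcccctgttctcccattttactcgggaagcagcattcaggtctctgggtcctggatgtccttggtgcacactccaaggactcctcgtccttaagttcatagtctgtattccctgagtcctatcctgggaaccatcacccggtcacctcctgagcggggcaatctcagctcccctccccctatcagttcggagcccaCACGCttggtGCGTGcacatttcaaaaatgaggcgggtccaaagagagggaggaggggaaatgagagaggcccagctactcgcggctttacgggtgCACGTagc
Slc2a1: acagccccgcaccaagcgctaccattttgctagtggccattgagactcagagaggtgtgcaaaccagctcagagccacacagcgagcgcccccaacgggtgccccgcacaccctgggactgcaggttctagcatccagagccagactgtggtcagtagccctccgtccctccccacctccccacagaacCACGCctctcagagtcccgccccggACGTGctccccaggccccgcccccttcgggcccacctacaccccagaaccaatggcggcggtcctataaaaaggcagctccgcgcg
Irg1: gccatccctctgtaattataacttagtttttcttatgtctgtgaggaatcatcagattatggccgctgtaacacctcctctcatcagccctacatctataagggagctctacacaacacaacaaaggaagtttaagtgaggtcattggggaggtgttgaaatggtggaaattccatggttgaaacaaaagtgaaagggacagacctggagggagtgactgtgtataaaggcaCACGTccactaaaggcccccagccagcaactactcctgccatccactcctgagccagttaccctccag

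The Ldha promoter shown held 7 matches, that of Pfkfb3 held 4, and those of Hif1a, Pfkm and Gapdh held 3 each. The Slc2a1 promoter held 2 and the Irg1 promoter held 1. Ldha, Pfkfb3 and Pfkm have further RefSeq promoters, not shown, with fewer matches: 2 for Ldha, 1 for Pfkfb3 and 0 to 2 for Pfkm. At least 1 match was present in a promoter of all 16 genes that rose, of all 5 matched genes that fell, and of 11 of the 14 matched genes that were not called. Of all 32851 promoters of this length, 19.6% held ACGTG, 32.4% held GCGTG and 43.8% held either. Counted by gene, 46.7% of 27025 genes held either in some promoter, against 32 of 35 (91.4%) here. The 35 genes had 54 promoters, against 32851 for the 27025 genes, and more promoters give more places for a match. The presence of either core did not separate genes that rose from genes that fell. ACGTG by itself was in a promoter of every gene that rose except Eno1. Of the matched genes that fell, Pfkm, Aldoc and Pdk2 held ACGTG, and Eno3 and Pdk1 did not. Of the matched genes not called, Egln1, Hk1, Pdk3 and Pfkfb2 held ACGTG and the others did not. This difference between groups was not tested, and a match is a description of the sequence only.

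Of the 37 genes, 35 reached the filter on low values, and 22 of them differed between LPS and saline (limma, Benjamini-Hochberg adjusted p under 0.05 over 13116 genes). That is 62.9%, where 50.1% of all genes tested were called. Higher after LPS were 16 genes (45.7%, against 25.7% of all genes), and lower were 6 (17.1%, against 24.3%). The median difference was 0.44 on the log2 scale, against 0.02 over all genes. The groups did not overlap for 25 of the 35 genes (63.4% of all genes) and for 21 of the 22 that were called, Hk3 being the exception. Pfkfb1 and Eno2 stayed below the filter, Irg1 reached it only with the LPS libraries, and Aldoc only with the saline libraries.

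The direction depended on how the libraries were scaled for part of the set. The values summed to between 467483 and 552368 in the saline libraries and to between 854330 and 885427 in the LPS libraries, before the logarithm. Higher calls made up 72.7% of the calls on the deposited values, 52.6% after quantile normalization and 34.6% after scaling to equal sums. Over all 13116 genes, 3377 were called higher and 3188 lower on the deposited values. These counts were 2694 and 2787 after quantile normalization, and 798 and 8343 under equal sums, where most genes were thus called lower. Equal sums moved the median of all genes from 0.02 to -0.68 and that of these genes from 0.44 to -0.26. Called in 1 direction under all 3 scalings were 9 genes that rose (Slc2a1, Hk2, Pfkfb3, Pgk1, Slc16a1, Slc16a3, Hif1a, Egln3, Irg1) and 6 that fell (Pfkm, Aldoc, Eno3, Pdk1, Pdk2, Epas1). For Hk3 and the abundant enzymes Aldoa, Gapdh, Pgam1, Eno1, Pkm and Ldha, the call held on the deposited values and was lost under equal sums, and for all of these but Hk3 also under quantile normalization.

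**Figure D1:**
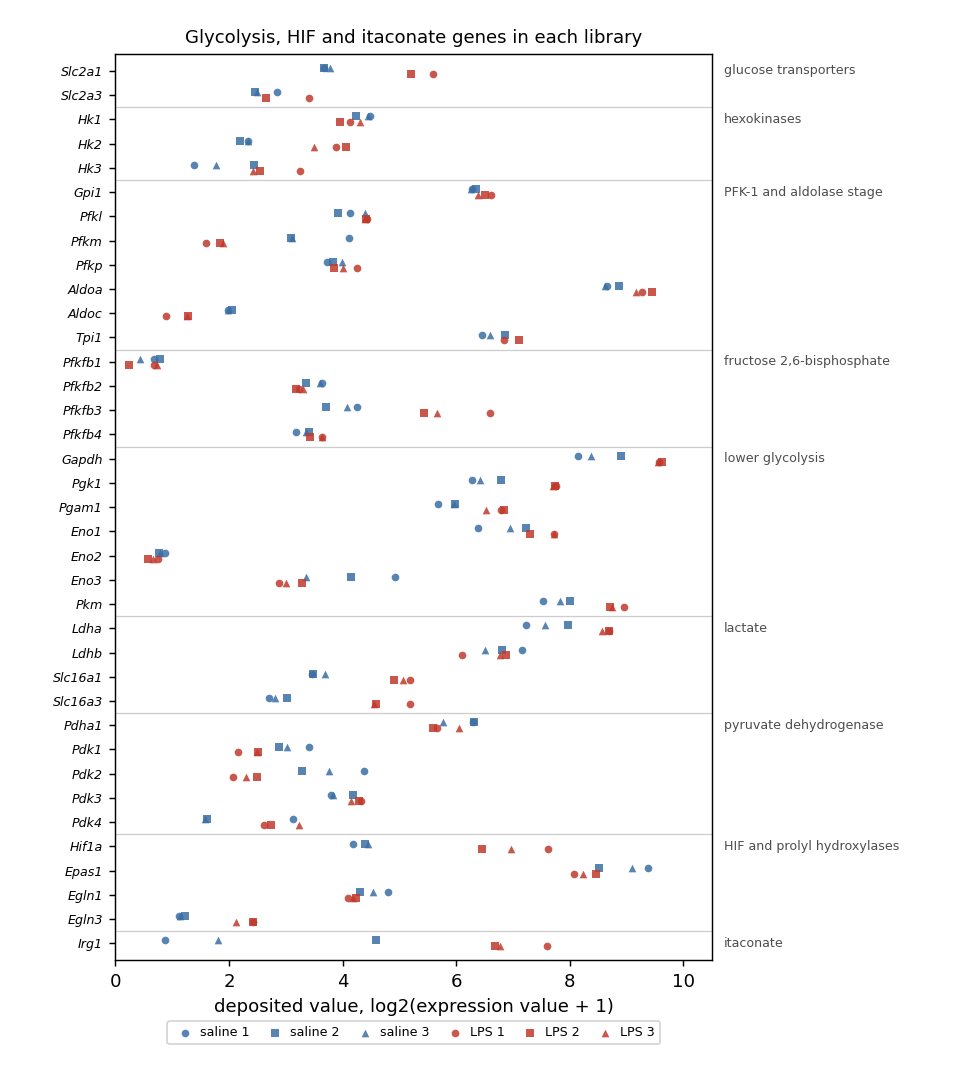
Deposited log2(value + 1) of each of the 37 genes (x axis) in each library, with genes grouped by role (y axis); blue marks are saline libraries, red marks are LPS libraries, and marker shape gives the library number. Hif1a, Slc16a1, Slc16a3 and Hk2 show red marks well apart from blue, while Irg1 in saline library 2, at 4.59, lies far above the other saline libraries.

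The first step is glucose uptake. Slc2a1 encodes GLUT1, the widespread basal glucose transporter (chr4:119108711-119137983, GRCm38). Its log2 value was 3.68, 3.67 and 3.78 in the saline libraries and 5.60 and 5.21 in LPS libraries 1 and 2; LPS library 3 has no value for it. The saline libraries lay within a narrow band and both LPS libraries were far above it. Slc2a1 rose by 1.69 ± 0.18 (SE), a 3.23-fold change of value + 1 (limma, adjusted p = 0.000261). Slc2a3, encoding the high-affinity transporter GLUT3 of neurons and leukocytes, stood at 2.84, 2.46 and 2.49 against 3.41 and 2.66. Its groups overlapped (difference 0.44 ± 0.24, adjusted p = 0.164). The difference was 0.059 without LPS library 1 (adjusted p = 0.866) and 0.82 without LPS library 2 (adjusted p = 0.0332, limma), each resting on 1 LPS library that is assumed to vary as the saline libraries do.

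Hexokinases trap glucose in the cell as glucose 6-phosphate. Hk1, the constitutive form, read 4.48, 4.23 and 4.45 in saline and 4.14, 3.95 and 4.31 after LPS. It was the most abundant hexokinase in every library but LPS library 2. Hk2, the inducible form that binds mitochondria (chr6:82725025-82774454, minus strand), read 2.33, 2.19 and 2.33 in saline and 3.88, 4.05 and 3.49 after LPS. Hk1 did not pass the test (difference -0.25 ± 0.15, adjusted p = 0.198), whereas Hk2 rose by 1.52 ± 0.17 (adjusted p = 0.000227, limma). Within each library, the log2 ratio of Hk2 to Hk1 moved from -2.40, -2.32 and -2.37 to -0.27, 0.11 and -0.88. In LPS library 2, Hk2 was thus slightly above Hk1. Of the summed hexokinase value, Hk2 held 15%, 13.8% and 14.8% in saline and 35.4%, 44.6% and 30.5% after LPS.

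Hk3, the hexokinase of myeloid cells, read 1.39, 2.44 and 1.78 in saline and 3.24, 2.55 and 2.43 after LPS. Saline library 2 lay above LPS library 3, so the groups overlapped. The difference was 0.87 ± 0.29 (limma, adjusted p = 0.0306). The call was lost without saline library 1 (0.63), saline library 3 (0.83) or LPS library 1 (0.62), with adjusted p between 0.0833 and 0.0933, and the difference was 1.31 without saline library 2 and LPS library 3 (adjusted p = 0.0113). Saline library 2 also held the highest summed neutrophil markers of its group, 2178 against 749 and 787, and the LPS libraries held 26151, 10248 and 18638. Other genes, among them Gapdh, Pgk1, Eno1, Pkm and Ldha, were likewise highest of the saline group in saline library 2. The part of neutrophils in the Hk3 values was not tested. In a whole-tissue sample, more or fewer cells of a type and more or less RNA per cell cannot be told apart.

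Between glucose 6-phosphate and the triose phosphates lie glucose 6-phosphate isomerase (Gpi1), phosphofructokinase 1 (Pfkl, Pfkm, Pfkp), aldolase (Aldoa, Aldoc) and triose phosphate isomerase (Tpi1). Here 1 of 7 genes rose (25.7% of all genes) and 2 fell (24.3% of all genes). Pfkm encodes the muscle-type phosphofructokinase, the committed step of the pathway. It read 4.11, 3.09 and 3.10 in saline and 1.60, 1.83 and 1.90 after LPS, with saline library 1 standing highest and no overlap. Pfkm fell by 1.66 ± 0.26 (limma, adjusted p = 0.00106), and by 1.32 without saline library 1. The liver-type Pfkl (difference 0.27, adjusted p = 0.182) and the platelet-type Pfkp (0.18, adjusted p = 0.353) did not pass the test. The summed phosphofructokinase value overlapped between groups, at 34.9 to 45.0 in saline and 36.4 to 40.6 after LPS, while the share of Pfkm in it went from 36.3%, 21.6% and 17.8% to 5.01%, 7.04% and 7.28%.

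Aldoc, the aldolase known from brain, read 1.99, 2.06 and 1.98 in saline and 0.90, 1.27 and 1.25 after LPS, and fell by 0.87 ± 0.15 (limma, adjusted p = 0.00179). Aldoa, the ubiquitous form, was far more abundant, at 8.66, 8.87 and 8.62 against 9.27, 9.45 and 9.17. Its groups did not overlap and the difference was 0.58 ± 0.19 (adjusted p = 0.0307), but it became -0.36 after quantile normalization and -0.22 under equal sums. The Aldoa call was also lost without saline library 1 (0.55), saline library 3 (0.53), LPS library 1 (0.60), LPS library 2 (0.50) or LPS library 3 (0.65), with adjusted p between 0.0597 and 0.136. The log2 ratio of Aldoa to Aldoc, which multiplying a library by a constant does not alter, was 7.06 to 7.20 in saline and 8.69 to 9.48 after LPS, a shift of 1.93. After quantile normalization the shift was 0.44 and the exact permutation p rose from 0.10 to 0.30. Gpi1 (0.21, adjusted p = 0.263) and Tpi1 (0.35, adjusted p = 0.186, no value in LPS library 3) did not pass the test, and both differences had the other sign under quantile normalization and equal sums.

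The PFKFB enzymes make and remove fructose 2,6-bisphosphate, the strongest activator of phosphofructokinase 1. Pfkfb3, the isoform with the highest kinase activity (chr2:11471433-11554077, minus strand), read 4.26, 3.70 and 4.07 in saline and 6.60, 5.43 and 5.66 after LPS. Every LPS library exceeded every saline library by more than 1 log2 unit, and Pfkfb3 rose by 1.88 ± 0.29, a 3.69-fold change of value + 1 (limma, adjusted p = 0.000938). Pfkfb2, the heart and kidney isoform, read 3.64, 3.36 and 3.59 against 3.23, 3.18 and 3.30, without overlap but without passing the test (-0.30, adjusted p = 0.104), and without saline library 2 its difference was -0.38 with an adjusted p of 0.0324. Pfkfb4 read 3.18, 3.40 and 3.35 against 3.64, 3.42 and 3.64 (0.25, adjusted p = 0.160). Pfkfb1, the liver isoform, stayed between 0.24 and 0.79 in all libraries and was not tested. Pfkfb3 held 47.3%, 38.0% and 43.4% of the summed PFKFB value in saline and 82.4%, 70.1% and 70.3% after LPS.

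In lower glycolysis, from glyceraldehyde 3-phosphate to pyruvate, all 6 genes tested were called on the deposited values (50.1% of all genes), 5 higher (25.7% of all genes) and 1 lower (24.3% of all genes). Pgk1, phosphoglycerate kinase, which makes the first ATP of the pathway (chrX:106187100-106203699), read 6.27, 6.79 and 6.41 in saline and 7.76, 7.73 and 7.71 after LPS. The LPS libraries were almost level, and Pgk1 rose by 1.24 ± 0.18 (limma, adjusted p = 0.000734), the only gene of this stage to rise under all 3 scalings. Gapdh, glyceraldehyde 3-phosphate dehydrogenase, often used as a reference gene, read 8.14, 8.91 and 8.37 against 9.56, 9.63 and 9.55 (1.11 ± 0.23, adjusted p = 0.00407). Pkm, pyruvate kinase, read 7.52, 8.0 and 7.83 against 8.96, 8.70 and 8.73 (1.01 ± 0.20, adjusted p = 0.0028). Pgam1, phosphoglycerate mutase, read 5.69, 5.98 and 5.96 against 6.79, 6.83 and 6.53 (0.84 ± 0.17, adjusted p = 0.00318). None of these groups overlapped, but the differences of Gapdh, Pkm and Pgam1 came to 0.30, 0.21 and 0.04 under equal sums and to 0.19, 0.20 and 0.30 after quantile normalization, and were no longer called. Gapdh, Pgk1, Pgam1 and Aldoa have processed copies elsewhere in the genome, and the sources used here do not say how reads were split between copies.

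Enolase converts 2-phosphoglycerate to phosphoenolpyruvate. Eno1, the ubiquitous form, read 6.39, 7.23 and 6.95 in saline and 7.72, 7.29 and 7.72 after LPS. LPS library 2 was only just above saline library 2, and the difference was 0.72 ± 0.24 (limma, adjusted p = 0.0314). It was 0.08 after quantile normalization and -0.076 under equal sums, and the call was lost without saline library 1 (0.49), saline library 3 (0.77), LPS library 1 (0.65) or LPS library 3 (0.65), with adjusted p between 0.065 and 0.102. A near-identical intronless copy, Eno1b, is listed separately at 1.51 to 2.11 in saline and 1.92 to 2.30 after LPS, so its reads would change Eno1 little. Eno3, the muscle enolase, read 4.92, 4.15 and 3.35 in saline and 2.89, 3.28 and 3.0 after LPS. Saline library 3 lay next to LPS library 2 and saline library 1 far above. Eno3 fell by 1.08 ± 0.33 (adjusted p = 0.0221), a call lost without saline library 2 (-1.08, adjusted p = 0.0628) or LPS library 3 (-1.05, adjusted p = 0.0527). Without saline library 1 the difference was -0.69 (adjusted p = 0.0461). Eno2, the neuronal form, stayed between 0.57 and 0.88 and was not tested.

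The muscle-type genes Pfkm and Eno3 were highest in the saline library richest in muscle markers, as were several other genes. Summed cardiac markers (among them Myl7, Tnnt2 and Actc1) were 1986, 683 and 238 in saline libraries 1, 2 and 3. In LPS libraries 1, 2 and 3 they were 49.6, 113 and 163, and all 10 cardiac markers tested fell (24.3% of all genes). Summed skeletal muscle markers were 52.4, 17.8 and 8.66 in saline and 3.29 to 6.95 after LPS. Of these, 3 of 5 tested were lower (24.3% of all genes) and 7 were not tested. Ckm, among the lower ones, reached the filter only with the saline libraries, where it was high. Of the 12 skeletal markers, Myh4 was below 0.01 in every saline library and Myh2 was listed at 0 in every LPS library (both named after their values were seen). Pfkm, Eno3 and Pdk2 were each highest in saline library 1. Among the saline libraries, Hk1, Slc2a3, Pfkfb2, Pfkfb3, Pdk1, Pdk4, Ldhb, Epas1 and Egln1 were highest there too, so this was not particular to muscle forms. The part of muscle tissue in the differences of Pfkm, Eno3 and Pdk2 was not tested.

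**Figure D2:**
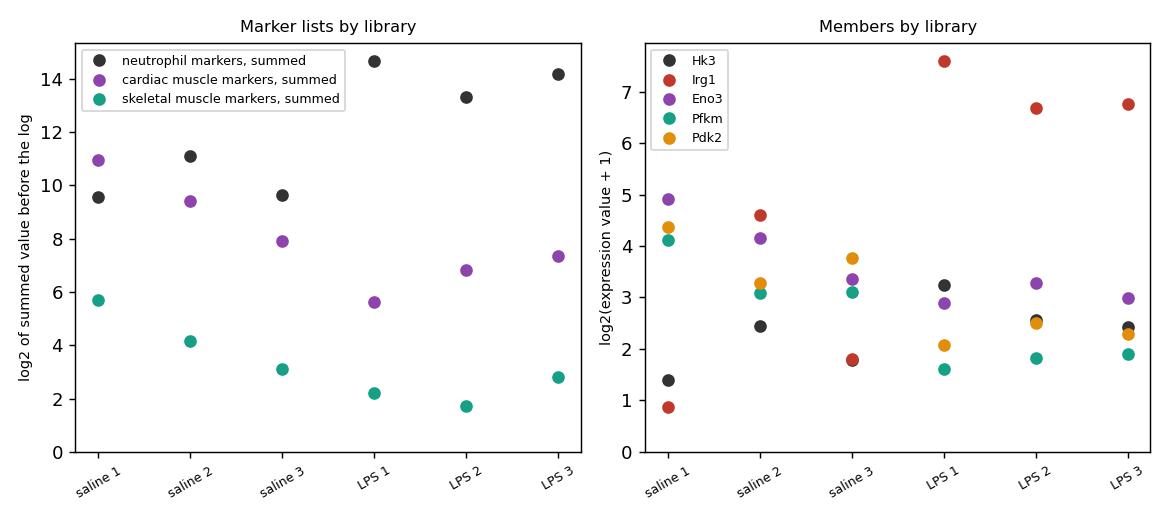
Left, log2 of the summed value of 3 marker lists in each library (neutrophil, cardiac muscle, skeletal muscle); right, deposited log2(value + 1) of Hk3, Irg1, Eno3, Pfkm and Pdk2 in the same libraries. Irg1 and Hk3 were highest among the saline libraries in saline library 2, where neutrophil markers were highest. Eno3, Pfkm and Pdk2 were highest in saline library 1, where both muscle lists were highest. Neither pattern was particular to the genes drawn. Among the saline libraries, Gapdh, Pgk1, Eno1, Pkm and Ldha were also highest in library 2, and Hk1, Pdk1, Epas1 and Egln1 in library 1.

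Lactate dehydrogenase interconverts pyruvate and lactate, and monocarboxylate transporters carry lactate across the membrane with a proton. Both transporters rose. Slc16a3 (MCT4, the main exporter of glycolytic cells, chr11:120948480-120960868) read 2.69, 3.01 and 2.80 in saline and 5.19, 4.58 and 4.55 after LPS. Slc16a1 (MCT1, chr3:104638668-104658462) read 3.46, 3.48 and 3.69 against 5.18, 4.91 and 5.07. The libraries of each group were close together and the groups far apart. Slc16a3 rose by 1.94 ± 0.20 (limma, adjusted p = 0.000155) and Slc16a1 by 1.51 ± 0.15 (adjusted p = 0.000134). Their summed value before the logarithm was 15.5 to 17.9 in saline and 52.1 to 71.0 after LPS. The ratio of Slc16a3 to Slc16a1 overlapped between groups (exact permutation p = 0.20, n = 3 against 3).

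Ldha, the subunit that favours lactate formation, read 7.23, 7.98 and 7.56 in saline and 8.69, 8.69 and 8.56 after LPS. The LPS libraries were nearly level and above every saline library, and Ldha rose by 1.05 ± 0.22 (limma, adjusted p = 0.00369), although the call was lost after quantile normalization (0.29) and under equal sums (0.25). Ldhb, the subunit known from heart, read 7.16, 6.81 and 6.50 against 6.09, 6.87 and 6.77 and overlapped (-0.24 ± 0.25, adjusted p = 0.431). The share of Ldha in the summed lactate dehydrogenase value was 51.3%, 69.3% and 67.8% in saline and 85.9%, 78% and 77.7% after LPS, with saline library 1 lowest.

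Pyruvate enters mitochondrial oxidation through the pyruvate dehydrogenase complex, which the PDK kinases switch off. Pdha1, its catalytic subunit, did not pass the test (-0.35, adjusted p = 0.168). Pdk2, a widespread kinase isoform, read 4.37, 3.29 and 3.77 in saline and 2.07, 2.50 and 2.29 after LPS, and Pdk1, a known HIF target, read 3.40, 2.89 and 3.03 against 2.16, 2.50 and 2.49. Neither overlapped. Pdk2 fell by 1.52 ± 0.25 (limma, adjusted p = 0.00137) and Pdk1 by 0.72 ± 0.18 (adjusted p = 0.00832). Other genes known as HIF-responsive, such as Slc2a1, Egln3 and Pgk1, rose in the same comparison. Of 17 HIF target genes tested outside glycolysis, 7 rose (25.7% of all genes) and 3 fell (24.3% of all genes). The part of HIF in any of these differences was not tested. Pdk3 read 3.80, 4.19 and 3.82 in saline and 4.32, 4.28 and 4.15 after LPS, with overlap (0.31, adjusted p = 0.120), and its difference without saline library 2 was 0.44 (adjusted p = 0.0211).

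Pdk4, the isoform induced by fasting, read 3.12, 1.61 and 1.58 in saline and 2.61, 2.73 and 3.24 after LPS. Saline library 1 lay among the LPS libraries, and the difference was 0.76 ± 0.38 (limma, adjusted p = 0.119). Without saline library 1, the library with the highest cardiac markers, the difference was 1.27 with an adjusted p of 0.0016. The log2 ratio of Pdk1 to Pdk4 was 0.32, 1.64 and 1.85 in saline and -0.56, -0.27 and -0.88 after LPS. The summed PDK value was 34.5 to 49.9 in saline and 30.7 to 33.7 after LPS, and Pdk3 took the largest share of it in every LPS library.

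**Figure D3:**
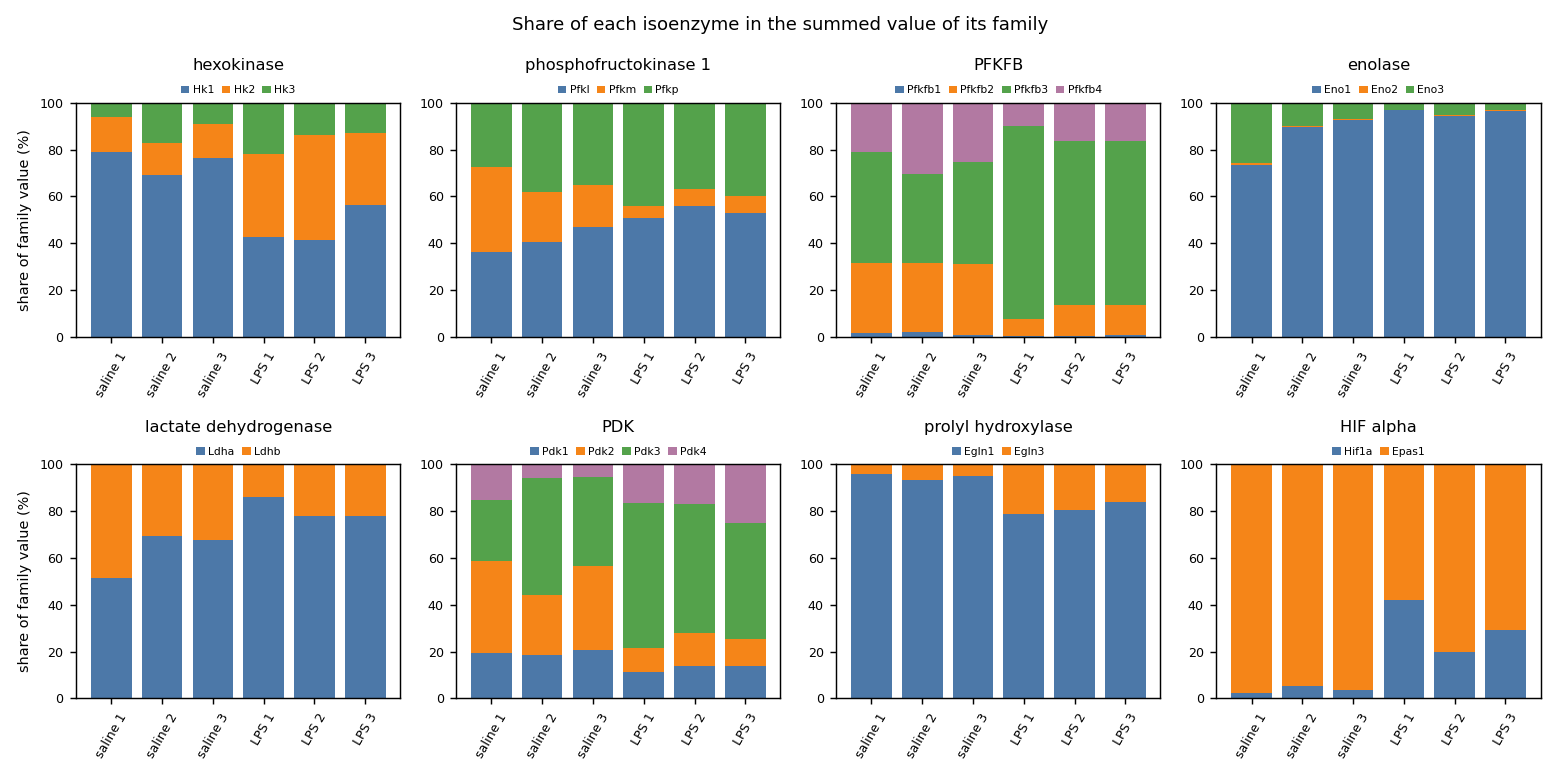
Share (%) of each isoenzyme in the summed value of its family, taken before the logarithm, for 8 families in each of the 6 libraries (stacked bars from 0 to 100). Hk2, Pfkfb3, Egln3 and Hif1a took larger shares in all LPS libraries than in any saline library, and Pfkm and Pdk2 smaller ones.

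Hif1a encodes the HIF-1 alpha subunit (chr12:73901375-73947530). It read 4.18, 4.39 and 4.44 in saline and 7.61, 6.46 and 6.96 after LPS. The saline libraries were within a narrow band and the LPS libraries more than 2 log2 units above it. Hif1a rose by 2.67 ± 0.26, a 6.37-fold change of value + 1 (limma, adjusted p = 0.000146). Among the 37 genes, its mean level went from rank 15 in saline to rank 9 after LPS.

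Epas1 encodes HIF-2 alpha, which is abundant in lung endothelium (chr17:86753700-86833410). It was the most abundant of the 37 genes in saline, at 9.38, 8.51 and 9.09, and ranked 5 after LPS, at 8.07, 8.46 and 8.22. LPS library 2 was just below saline library 2, and the difference was -0.74 ± 0.25 (limma, adjusted p = 0.0331), -1.58 after quantile normalization and -1.54 under equal sums. The call was lost without saline library 1 (-0.55), saline library 3 (-0.69), LPS library 1 (-0.65), LPS library 2 (-0.84) or LPS library 3 (-0.72), with adjusted p between 0.0534 and 0.113. Summed endothelial markers were 1456 to 1685 in saline and 970 to 1318 after LPS. Of 14 endothelial markers, 6 were lower (24.3% of all genes) and none higher (25.7% of all genes). Their part in the Epas1 difference was not tested. The log2 ratio of Hif1a to Epas1 went from -5.28, -4.18 and -4.72 to -0.47, -2.02 and -1.27, an 11.1-fold shift (3.47 on the log2 scale, and 3.93 after quantile normalization). The summed value of the pair overlapped between groups, at 384 to 681 in saline and 421 to 463 after LPS.

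The prolyl hydroxylases, which mark HIF for destruction, came next. Egln3 (PHD3, itself a HIF target, chr12:54178981-54203860, minus strand) read 1.12, 1.22 and 1.13 in saline and 2.42, 2.42 and 2.12 after LPS, and rose by 1.16 ± 0.15 (limma, adjusted p = 0.000376). Egln1 (PHD2, the main oxygen sensor) read 4.79, 4.31 and 4.53 against 4.09, 4.24 and 4.17. Its groups did not overlap but it did not pass the test (-0.38 ± 0.16, adjusted p = 0.0762), and without saline library 2 its difference was -0.50 with an adjusted p of 0.0203. Egln3 held 4.19%, 6.60% and 5.08% of the summed value of the pair in saline and 21.3%, 19.6% and 16.4% after LPS.

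Irg1 (Acod1, chr14:103046977-103056573) had the largest difference of the 37 genes. It read 0.87, 4.59 and 1.81 in saline and 7.60, 6.68 and 6.77 after LPS. Saline library 2 stood far above the other saline libraries, yet below every LPS library. Irg1 rose by 4.59 ± 0.76, a 24.1-fold change of value + 1 (limma, adjusted p = 0.00138). Without saline library 2 the difference was 5.68, and without saline library 1 it was 3.82. Its mean level went from rank 30 to rank 8 of the 37 genes. Neutrophil markers, including S100a8 (4.18), S100a9 (4.12) and Retnlg (3.61), rose in 15 of 17 cases (25.7% of all genes) and none fell. Monocyte and macrophage markers rose in 12 of 14 cases (25.7% of all genes) with Lyz2 lower (-1.0). Summed monocyte markers overlapped, at 3695 to 5398 in saline and 3170 to 4038 after LPS. Lyz2, at log2 values of 11.74 to 12.27 in saline and 10.81 to 11.11 after LPS, made up most of the saline sums. The sum therefore does not describe the markers that rose, and the median difference of the 14 markers was 1.98. The part of these cells in the Irg1 difference was not tested.

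**Figure D4:**
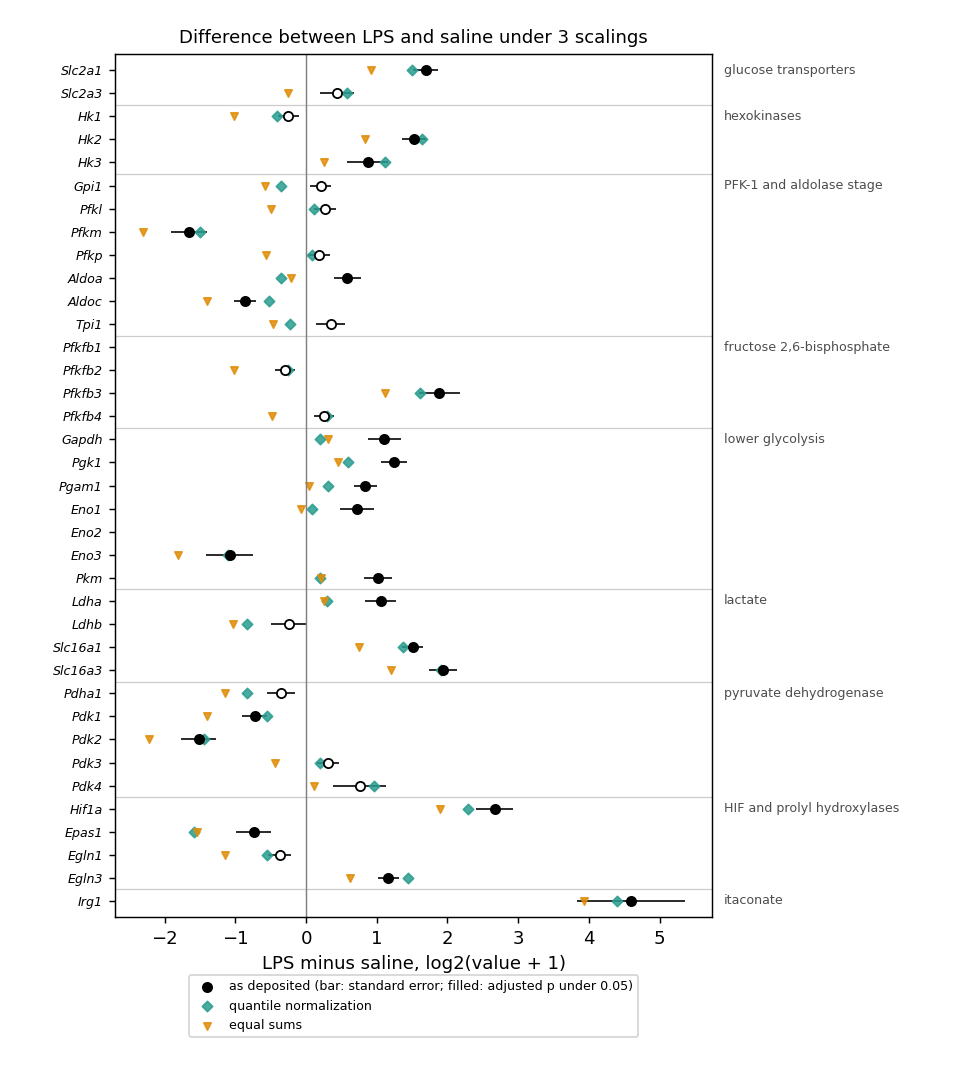
Difference between LPS and saline (x axis, log2 scale) for the tested genes under 3 scalings; circles with standard error bars are the deposited values, filled where adjusted p was under 0.05, diamonds are quantile-normalized values and triangles are values scaled to equal sums. Triangles lie left of the circles throughout, and Hif1a, Irg1, Slc2a1 and Slc16a3 stay to the right of 0 while Aldoa crosses it.

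Ratios between isoenzymes of one reaction were compared in 16 pairs, since a ratio within a library is not altered by multiplying that library by a constant. The groups did not overlap in 13 pairs (63.4% of all genes in their own values), of which 12 had all 6 libraries, and the exact two-sided permutation test of 3 against 3 cannot go below p = 0.10, adjusted 0.133 over the 16 pairs. These 12 pairs reached that floor. Besides the pairs above, the log2 ratio was higher in all LPS libraries than in any saline library for Pfkl over Pfkm (mean shift 2.29), Pfkp over Pfkm (2.20), Pfkfb3 over Pfkfb2 (2.28), Egln3 over Egln1 (2.10), Pdk3 over Pdk2 (2.08), Eno1 over Eno3 (1.90, but 1.25 without saline library 1 and 1.27 after quantile normalization), Ldha over Ldhb (1.31) and Pfkfb4 over Pfkfb2 (0.61). Slc2a3 over Slc2a1 shifted by -1.27 with only 2 LPS libraries (exact permutation p = 0.20, the smallest possible). Hk3 over Hk1 (1.39, p = 0.20) and Hk3 over Hk2 (-0.62, p = 0.50) overlapped between groups in these exact tests.

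Neighbouring pathways were read from separate lists, each against the 50.1% of all genes called. Of 17 tested HIF target genes outside glycolysis, 7 rose and 3 fell (median 0.17), among them Adm, the vasodilator peptide adrenomedullin (3.21), and the mTOR inhibitor Ddit4 (1.95), with the collagen hydroxylase Plod2 lower (-1.22). Vegfa, named after its value was seen, was not called (-0.14, adjusted p = 0.640). Of 10 other HIF system genes, 3 rose and 3 fell: the elongins Tceb1 (1.16) and Tceb2 (1.06) and Rbx1 (0.94), parts of the ligase that binds hydroxylated HIF, were higher (0.35, 0.25 and 0.15 under equal sums), and Hif1an, the asparaginyl hydroxylase FIH, was lower (-0.88).

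Other sugar and monocarboxylate carriers gave 3 higher and 2 lower of 14, among them Slc2a6, a lysosomal transporter of inflammatory macrophages (2.32), the sodium-coupled Slc5a1 (1.44), Slc16a6 (1.25) and the insulin-regulated Slc2a4 (-1.37). Further glycolysis isoforms gave 1 higher and 2 lower of 9, the lower ones being muscle-type Pgam2 at -2.10 and Hkdc1 at -0.80. In pyruvate import and the dehydrogenase complex, 3 rose and 3 fell of 11. The phosphatase Pdp2 (-0.94), which reverses PDK action, and Pdpr (-1.50), a regulatory subunit of pyruvate dehydrogenase phosphatase, were lower. The pyruvate carrier Mpc1 (0.90, but 0.10 under equal sums) and Lias (0.71, but -0.06 under equal sums) were higher. In the pentose phosphate pathway, which makes NADPH, 4 of 9 rose and none fell: Taldo1 (1.41), Pgd (1.06), Pgls (0.86) and Tkt (0.68). Under equal sums these were 0.60, 0.27, 0.06 and -0.12, and the median of the pathway went from 0.42 to -0.36.

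The tricarboxylic acid cycle, source of the substrate of Irg1, gave 2 higher and 4 lower of 18 (median -0.06); Suclg1 (-0.93), Ogdh (-0.67) and Idh2 (-0.56) were among those that fell. Of 8 genes for itaconate transport and breakdown, 3 fell and none rose: Suclg1, Clybl (-0.67) and Mut (-0.55). Gluconeogenesis gave 1 higher and 1 lower of 5, Fbp2 at 1.62 and Pck1, known from liver and fat, at -2.60. Adipocyte markers fell in 7 of 8 cases (24.3% of all genes), among them Cfd, which reached the filter only with the saline libraries. The part of adipocytes in the Pck1 value was not tested. In glycogen metabolism 7 of 14 fell and 3 rose (median -0.44), with the muscle phosphorylase Pygm (-2.66), Gyg (-1.30) and Gaa (-1.23) lower and the liver phosphorylase Pygl higher (1.22, and 0.45 under equal sums). Of the neighbouring genes named, Hkdc1, Pgam2, Slc2a4, Pdp2, Pdpr, Pck1 and Pygm reached the filter only with the saline libraries and Fbp2 only with the LPS libraries, the groups where they were high. Pygm, like Pfkm, was highest in saline library 1 (4.27, against 3.10 and 3.06 in saline libraries 2 and 3).

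As to the libraries themselves, Pearson correlations over 10295 genes were 0.964 to 0.988 within groups and 0.824 to 0.932 between them. The club cell gene Scgb1a1 led every library with 11% to 20.4% of the summed value. The table of LPS library 3 ends early, leaving 4484 of 23183 genes (19.3%) and 3 of the 37 (Slc2a1, Slc2a3, Tpi1) without a value; of the neighbouring genes named, Slc2a4, Slc2a6, Slc5a1, Tceb1, Tceb2, Vegfa, Suclg1, Tkt and Taldo1 lack it too. Lung identity was plain from the surfactant gene Sftpc and the other type 2 cell markers, summed to 18906 to 20254 in saline and 14702 to 15849 after LPS. Other marker lists gave 5 lower and 1 higher of 11 for type 2 cells, and 4 lower and 1 higher of 10 for type 1 cells. Fibroblasts gave 6 lower of 10, B and T cells 8 lower of 11, and alveolar macrophages 6 lower and 1 higher of 12. Erythroid cells gave 5 higher of 7. Over all genes tested, 24.3% were lower and 25.7% higher. A marker could reach the filter through 1 group alone, as Ckm and Cfd did through saline, so the counts of the marker lists are descriptions and not tests.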

How the data were processed

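RNA was extracted with Trizol and made into strand-directed libraries with the NEBNext Ultra II Directional kit, per the labels' protocols. The submitters' processing notes name TopHat and mm10; for counting and normalization the tools are not stated in those notes. The authors deposited 1 table per library of log2(value + 1) for 23183 genes. The lowest values took a different form in each group. Every saline table listed 3869 genes at exactly 0. The LPS tables listed 6097, 6223 and 5117, the last in the table that ends early. Values above 0 but very near it numbered 1505, 1936 and 1905 in saline and 24, 11 and 13 after LPS. This form cannot be separated from treatment, and its part in the differences between LPS and saline was not tested. For genes with 1 transcript, low values multiplied by transcript length gathered more than the values alone. The fullest narrow bin held 17 to 29 genes a library with length and 9 to 16 without. The values were taken as length-scaled on this ground, which the sources used here do not state, and family shares and level ranks rest on it. No reads were recovered, so depth is unknown and no counting error is given. Levels are compared between genes on this scale only.

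Genes with a value of at least 1 before the log in at least 3 libraries (13116, of which 10295 have 6 values) were compared with limma 3.58.1 (R 4.3.3) with a variance trend and Benjamini-Hochberg adjustment, called under 0.05. The fit was tested on simulated data with few changed genes and no shift in library sums, so that test does not bear on the scaling of these libraries. Missing values of LPS library 3 were left out, so Slc2a1, Slc2a3 and Tpi1 rest on 5 libraries. Fold changes are on the value + 1 scale and understate low genes. Isoenzyme ratios used values before the log and exact permutation tests. Gene coordinates are from GENCODE on GRCm38.

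Per-library values are given for called genes of at least 1.5-fold (0.58) and for described isoenzymes, up to 4 called genes of each neighbouring list by size, and up to 3 markers of each cell type. A few genes that this rule names are not reported here. Members and lists were chosen with earlier results of these data known. Alternatives were pseudocount 0.1, no filter, a mean of at least 5, quantile normalization, equal sums, no variance trend, a replicate block, genes with 6 values only, each library left out, and a threshold of 0.01; leaving out saline library 2 with LPS library 3, and summing Eno1 with Eno1b, were added after seeing the data.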

Additional observations from a re-analysis of the deposited data

How the results depend on the processing

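On the deposited scale, 12 of the 22 called genes kept their side of the threshold in every alternative run for them: Slc2a1, Hk2, Pfkm, Aldoc, Pfkfb3, Pgk1, Slc16a1, Slc16a3, Pdk2, Hif1a, Egln3 and Irg1. Of 555 alternatives over single genes, 485 kept direction and call, 43 lost the call, 15 gained one and 12 reversed. The main count of 16 higher and 6 lower became 10 higher and 9 lower after quantile normalization. It became 9 and 17 under equal sums, and 14 and 3 with no filter on low values. Over all genes tested, the main count was 3377 higher and 3188 lower. It was 2694 and 2787 after quantile normalization, 798 and 8343 under equal sums, and 2441 and 2690 with no filter. The cause was not tested. Leaving out each library gave 13 to 17 higher and 4 to 7 lower. The threshold of 0.01 left 13 and 4, and without saline library 2 and LPS library 3 there were 17 and 6. Reversed signs after quantile normalization were Gpi1 at -0.35, Aldoa at -0.36 and Tpi1 at -0.23. Reversed signs under equal sums were Slc2a3 at -0.26, Gpi1 at -0.58, Pfkl at -0.50, Pfkp at -0.57, Aldoa at -0.22, Tpi1 at -0.46, Pfkfb4 at -0.48, Eno1 at -0.076 and Pdk3 at -0.45. Same-numbered libraries did not deviate together (correlations -0.252 to -0.0776 over 10295 genes). Deviations were taken from means of 3 libraries, so these values cannot decide whether equal numbers share a litter or day. A replicate block gave 14 higher and 5 lower, losing Hk3, Eno1 and Epas1. None of 143 alternatives to the isoenzyme ratios reversed a sign, but after quantile normalization the groups overlapped for Aldoa over Aldoc (0.44) and Eno1 over Eno3 (1.27). Depth is unknown, so precision rests on the spread of 3 libraries a group.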
